A study of Polyandrocarpa zorritensis and Clavelina lepadiformis with 36 samples.

Results

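Stolons were set against whole zooids in *Polyandrocarpa zorritensis*, a colonial ascidian that buds asexually. A transcript entered the comparison when the higher of its stolon and zooid means was at least 5, and 18133 of the 27938 transcripts in the file (64.9%) did. The highest of the means that stayed outside was 4.998, and the lowest inside was 5.00. Each level below is the authors' mean of TPM (a read abundance corrected for transcript length and library size, so that levels of different genes can be compared) after TMM scaling between samples, called scaled TPM here, with 1 mean per stage. The change is log2((stolons + 1)/(zooids + 1)), so a positive value means a higher level in stolons, and the added 1 makes the change of weakly expressed transcripts look smaller.

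Stolons are tubular vascular outgrowths of the body, covered by the cellulose-containing tunic, by which a colony attaches and spreads. The zooid is the feeding individual, with siphons, a ciliated branchial basket, an endostyle that secretes mucus, a gut and body wall muscle. Where stolon vessels branch, budding nests form, and these give rise either to new zooids or to dormant spherules that germinate later. A stolon is therefore a tissue without feeding organs from which budding proceeds.

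The comparison used 3 stolon samples and 3 zooid samples, grown in the laboratory, where colonies were kept at 24 °C, by germinating material of the field rope that gave the dormant spherules, and each sample pooled tissue from at least 3 specimens. Age, strain and number of founding genotypes were not given in the sources used here. Budding nests (3 samples), dormant spherules collected in the field (3 samples) and germinating spherules (3 samples at 18 °C and 3 at 24 °C) served as further stages, and the colonial ascidian *Clavelina lepadiformis*, with 3 stolon and 3 zooid samples raised from 1 colony, as another species. Colonies of *C. lepadiformis* were kept at 18 °C, so species and culture temperature cannot be told apart. The table of means holds no value per sample, so the spread between samples and the depth of each library are unknown, no difference has a replicate check, and no test was made. In bulk tissue of this kind, fewer cells of a type and less RNA per cell cannot be told apart.

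Human entry names were attached to 2760 of the transcripts compared, covering 2602 different names, and a further 418 carried names of other species. The names exist only for transcripts that had a reciprocal best match in *C. lepadiformis* and that the study had called in some stage in both species, so the named transcripts are a selected part of the whole. Their log2 change had a median of -0.21, against -0.09 over all transcripts compared.

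Of all transcripts compared, 3334 were at least 2-fold higher in stolons, which is 18.4%, and 3761 were at least 2-fold higher in zooids, which is 20.7%. The other 11038 (60.9%) lay within 2-fold. The asymmetry grew with the size of the change, since 1401 transcripts were at least 4-fold higher in stolons and 2271 in zooids, and 160 were at least 16-fold higher in stolons and 595 in zooids. When both columns were scaled to the same sum, 2835 transcripts were higher in stolons and 4842 in zooids, with a median shift of -0.33 over all transcripts in place of -0.09. With a minimum level of 20 the order turned, with 1495 higher in stolons and 1124 in zooids.

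Among the named transcripts, 208 were at least 2-fold higher in stolons, which is 7.54%, and 627 were at least 2-fold higher in zooids, which is 22.7%. The counts of gene lists and groups below are to be read beside these shares. A pair in the other species existed for 377 of the 3334 stolon-high transcripts (11.3%), for 926 of the 3761 zooid-high ones (24.6%) and for 20.1% of all compared.

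Some differences were close to presence and absence. In 333 transcripts the stolon mean was at least 5 and the zooid mean was listed at 0, and 82 of these were listed at 0 in every other stage as well. In the opposite direction, 692 transcripts had a zooid mean of at least 5 and were listed at 0 in stolons. Of these, 73 were listed at 0 in every other stage. A pair in *C. lepadiformis* existed for 7 of the 333 and for 117 of the 692, against 20.1% of all transcripts compared. The unnamed transcript with the largest change towards stolons, TRINITY_DN23592_c0_g1_i3.p2, had 127 scaled TPM in stolons, 9.56 in budding nests, and 0 in dormant spherules, germinating spherules and zooids. Its counterpart, TRINITY_DN1259_c0_g2_i1.p1, had 0.40 scaled TPM in stolons, against 3434 in zooids. No name was attached to either transcript.

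The tissue labels were read beside 35 markers of cilia, gut, muscle, endostyle, neurons and gonad, all parts of a whole zooid. Names existed for 19 of them. Of the 20 marker transcripts compared, 18 were at least 2-fold higher in zooids, against 22.7% of all named transcripts. These 18 passed the minimum through the zooid mean alone. The markers were chosen with earlier results known, so they describe the samples and do not test the labels. Titin (TITIN), the giant spring protein of muscle, had 0.010 scaled TPM in stolons, against 105 in zooids. Synaptotagmin 1 (SYT1), the calcium sensor of synaptic vesicles, had 0.091 in stolons, against 23.9 in zooids. NKX21, a homeobox factor of the endostyle, was listed at 0 in stolons, against 5.37 in zooids. The exceptions were both elastase transcripts (CEL2A), with 28.3 and 38.4 scaled TPM in stolons, against 9.32 and 13.8 in zooids. The cilia markers reached at most 0.565 in stolons. The germline helicase DDX4, with 2.00 in stolons and 3.09 in zooids, stayed below the minimum.

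**Figure D1:**
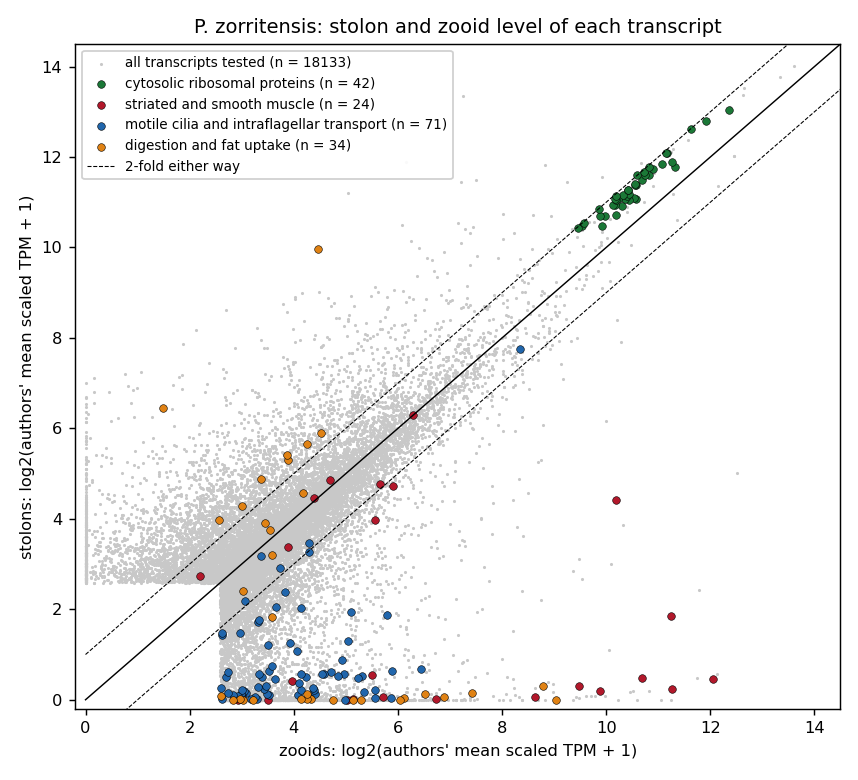
Stolon level (vertical axis) against zooid level (horizontal axis) of each of the 18133 transcripts compared in *P. zorritensis*, both as log2(authors' mean scaled TPM + 1), with colours for 4 gene lists and dashed lines at 2-fold. The 42 cytosolic ribosomal proteins sit above the diagonal at high levels, whereas muscle and cilia transcripts lie along the bottom, with most stolon means below 1.

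Muscle genes had the lowest median of the 28 gene lists. Of 24 muscle transcripts, 0 were at least 2-fold higher in stolons and 18 were at least 2-fold higher in zooids, with a median change of -4.99. Summed over the list, the level was 233 scaled TPM in stolons, against 14599 in zooids, and 14 of the 24 stayed below 1 in stolons. Alpha actin of muscle (ACTS), a thin filament subunit, had 0.376 in stolons, against 4224 in zooids, a log2 change of -11.58. Calponin (CNN1), which binds actin and slows myosin, had 0.177 in stolons, against 2474 in zooids, a change of -11.04. The troponins, which switch contraction on with calcium, followed closely. TNNC2 had 0.386 in stolons, against 1640.4 in zooids (change -10.21), TNNI1 had 0.145 against 949 (change -9.70), and TNNC1 had 0.229 against 714 (change -9.19). Myosin chains were also low in stolons, with MYL5 at 2.62 in stolons, against 2438 in zooids (change -9.40), and MYH1 at 0.040 in stolons, against 397 in zooids (change -8.58).

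The contractile genes were not uniformly low in stolons. Non-muscle myosin MYH10, which drives cell shape change and division, had 77.1 scaled TPM in stolons and 77.4 in zooids. Filamin C (FLNC), an actin cross-linker, had 27.9 in stolons and 24.8 in zooids. Myosin light chain kinase (MYLK), which turns on smooth muscle and non-muscle myosin, was present as one transcript with 5.68 in stolons and 3.59 in zooids, and as another with 0.334 in stolons and 14.6 in zooids. Even MYL6, a light chain shared by smooth muscle and other cells, was 20.3 in stolons against 1170.2 in zooids.

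The genes of motile cilia were low in stolons as a group. All 71 transcripts of this list had a change below 0, 66 of them by at least 2-fold, and the median change was -3.03. The median level of a list member was 0.417 scaled TPM in stolons, against 11.7 in zooids, and 51 of the 71 stayed below 1 in stolons. The 5 within 2-fold included TBB4B, a beta tubulin that other microtubules also use, with 214 in stolons and 324 in zooids, and the basal body proteins BBS5 and B9D1. Axonemal dynein heavy chains, the motors of ciliary beating, were put together after their values were seen. All 5 of them were at least 2-fold higher in zooids, DYH7 having 0.027 in stolons, against 6.54 in zooids.

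Digestive genes were divided. Of 34 transcripts for digestion and fat uptake, 9 were at least 2-fold higher in stolons and 20 were at least 2-fold higher in zooids, with a median of -2.90. The zooid-high part was near absent from stolons. Carboxypeptidase A2 (CBPA2) had 0.045 scaled TPM in stolons, against 117 in zooids. The chitin-degrading enzyme CHIT1 had 0.087 in stolons, against 90.6 in zooids. The starch-degrading brush border enzyme MGA had 0.023 in stolons, against 68.0 in zooids, and FABP6, a carrier of bile acids in the vertebrate gut, was listed at 0 in stolons, against 526 in zooids.

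The stolon-high digestive genes included the named transcript with the largest change towards stolons. Pancreatic-type amylase (AMYP), which cleaves starch and glycogen, had 1001 scaled TPM in stolons, against 21.1 in zooids, a change of 5.51. It was higher still in budding nests, at 6387, in dormant spherules, at 8982, and in germinating spherules, at 3696, so the zooid was the stage with the lowest level. A phospholipase A2 transcript of the pancreatic type (PA21B) followed another course, with 86.5 in stolons and 9.06 in budding nests. It had between 2.18 and 2.29 in the spherules, and 1.82 in zooids (change 4.96). Another transcript of this name stayed within 2-fold, with 22.9 in stolons, 34.2 in dormant spherules and 17.0 in zooids. MTP, which loads fat onto lipoprotein particles, had 58.8 in stolons, against 21.9 in zooids. The remaining stolon-high members were serine proteases, namely the elastases, 2 transcripts named for enteropeptidase (ENTK) and 2 for prostasin (PRSS8).

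A group of trypsin-type serine proteases, put together after the values were seen, held 12 transcripts, among them the ENTK and PRSS8 transcripts above. Of these 12, 8 were at least 2-fold higher in stolons and 3 in zooids, against 7.54% and 22.7% of all named transcripts. The members were picked with their values known, so the count does not describe serine proteases at large. Left out were the stolon-high elastases and CTRL, a digestive protease with 0.112 in stolons, against 170.02 in zooids. TMPS5 had 66.4 scaled TPM in stolons, against 16.1 in zooids, and BSSP4 had 90.2 in stolons, against 22.8 in zooids. The kallikrein KLK6 went the other way and was listed at 0 in stolons, against 31.6 in zooids. Such names rest on the closest human protein, so the substrate of each enzyme in this animal is unknown.

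**Figure D2:**
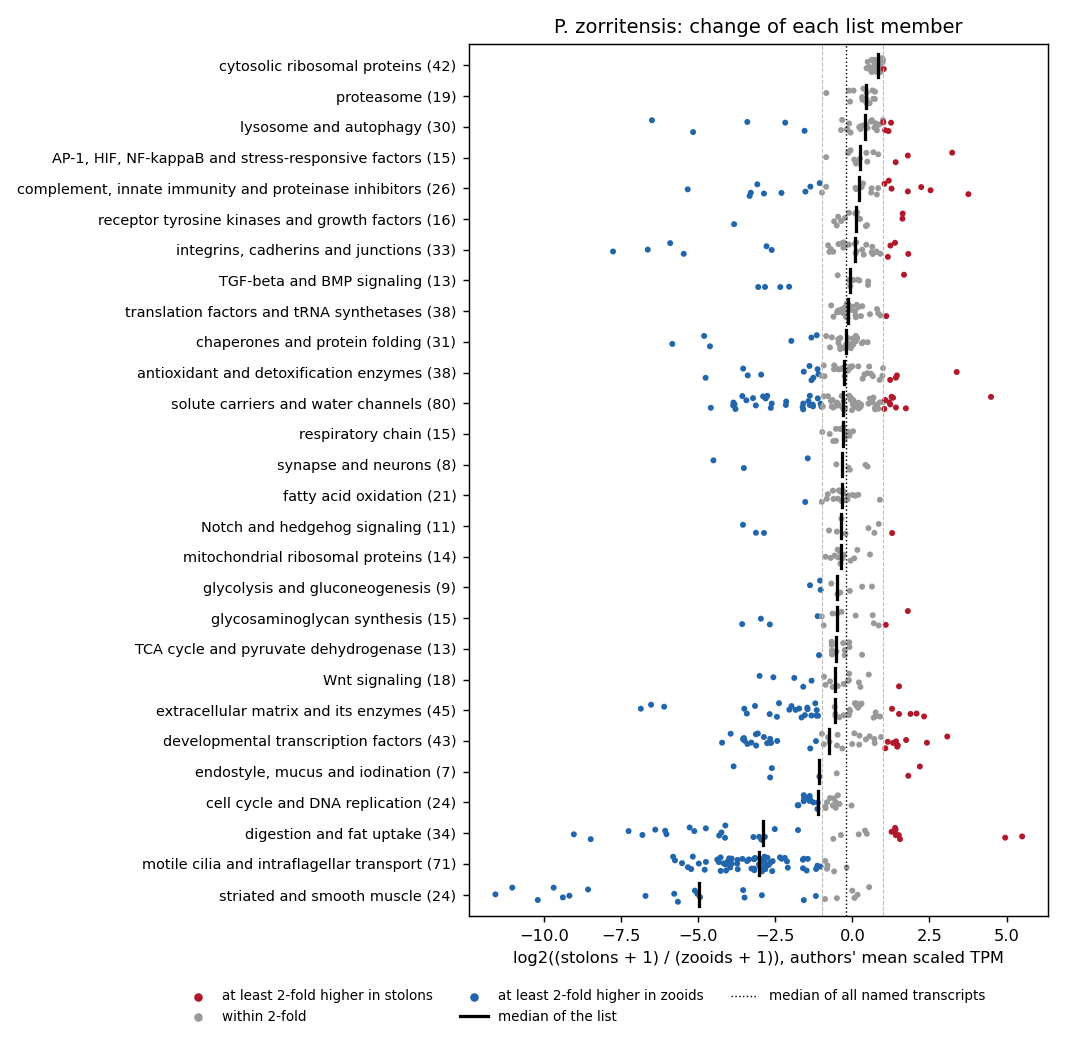
Log2 change (horizontal axis, stolons over zooids, authors' mean scaled TPM + 1) of each member of 28 gene lists, 1 row per list with the number of transcripts in brackets and a black bar at the list median. The ribosomal list has all 42 members to the right of 0 within a narrow band, whereas the muscle, cilia and digestion lists reach far to the left.

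Cytosolic ribosomal proteins, the protein part of the translation machine, made up most of the highest levels in stolons among the named transcripts. All 42 were higher in stolons, by 0.46 to 1.02 on the log2 scale with a median of 0.83, and 1 of them (RS23, with 3106 scaled TPM in stolons and 1535 in zooids) reached 2-fold. Summed, they took 119359 scaled TPM in stolons, against 68587 in zooids, which is 14.8% and 9.97% of each column. The most abundant were RS27, with 8449 in stolons and 5229 in zooids, RL37A, with 7076 in stolons and 3876 in zooids, and RL5, with 6248 in stolons and 3167 in zooids. All 42 stayed above 0 when the columns were scaled to the same sum. Of the 10 highest named levels in stolons, 9 were ribosomal proteins, and the other was the iron store ferritin (FRIH), with 4201 in stolons and 2254 in zooids. Neither the ribosomal proteins nor ferritin peaked in stolons, since 40 of the 42 had their highest mean in dormant spherules, where ferritin reached 23380.

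Other housekeeping groups differed little. The 19 proteasome subunits, which degrade tagged proteins, had a median of 0.45 and stayed within 2-fold. The 38 translation factors and tRNA synthetases had a median of -0.14, with EF1G, a subunit of elongation factor 1, as the 1 stolon-high member at 736 scaled TPM in stolons and 343 in zooids. The 14 mitochondrial ribosomal proteins (median -0.36), the 15 respiratory chain subunits (median -0.30) and the 13 enzymes of the TCA cycle and its entry (median -0.52) were slightly lower in stolons. In the glycolysis list of 9, the 3 members past 2-fold were all lower in stolons, and glyceraldehyde-3-phosphate dehydrogenase (G3P) had 129 in stolons, against 337 in zooids.

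Cell cycle and DNA replication genes were lower in stolons. All 24 had a change below 0, 13 of them by at least 2-fold, with a median of -1.13. PCNA, which holds DNA polymerase on its template, had 21.0 scaled TPM in stolons, against 59.8 in zooids. The replicative helicase subunit MCM7 had 5.88 in stolons, against 19.6 in zooids. Cyclin B2 (CCNB2), which drives mitosis, had 2.59 in stolons, against 11.3 in zooids (change -1.78). For 18 of the 24, the highest mean of the 5 stages was in germinating spherules.

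Extracellular matrix genes leaned towards zooids, with exceptions on the stolon side. Of 45 transcripts, 5 were at least 2-fold higher in stolons and 22 were at least 2-fold higher in zooids, and the median change was -0.58. The fibrillar collagen chains CO5A2, with 5.39 scaled TPM in stolons against 745 in zooids (change -6.87), and CO5A1, with 3.63 in stolons against 428 in zooids (change -6.53), led the list. COCA1, a collagen that decorates fibrils, had 0.187 in stolons, against 81.0 in zooids. Nidogen 2 (NID2), a linker of the basement membrane, had 6.61 in stolons, against 48.0 in zooids, and the network collagen CO4A1 had 34.8 in stolons and 51.4 in zooids. The stolon-high matrix genes were fibronectin (FINC), with 10.6 in stolons and 1.74 in zooids, the laminin chain LAMB2, with 39.4 in stolons and 13.2 in zooids, the membrane-bound matrix protease MMP14, with 44.7 in stolons and 17.8 in zooids, and 2 of the transcripts named for the adhesion protein SVEP1.

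Junction genes had no common direction. Of 33 transcripts for integrins, cadherins and junctions, 4 (12.1%) were at least 2-fold higher in stolons and 6 (18.2%) in zooids. These lay not far from the 7.54% and 22.7% of all named transcripts. The list median of 0.08 turned to -0.14 with equal sums and to -0.17 at a minimum of 20. Claudins, which seal the space between epithelial cells, carried most of this. CLD1 had 0.367 scaled TPM in stolons, against 297 in zooids, and CLD7 was listed at 0 in stolons, against 98.8 in zooids. CLD18, by contrast, had 459 in stolons, against 130.1 in zooids (change 1.81). Desmoplakin (DESP), which ties junctions to intermediate filaments, had 11.5 in stolons, against 3.81 in zooids. Connexin-named transcripts were outside this list and were put together after the values were seen. CXA4, with 166 in stolons and 41.7 in zooids, and CXD2, with 57.3 in stolons and 12.5 in zooids, were stolon-high. On the zooid side, CXA8 was listed at 0 in stolons, against 12.1 in zooids, and CXA3 had 2.15 in stolons, against 7.83.

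Complement and innate immune genes went both ways. Of 26 transcripts, 7 were at least 2-fold higher in stolons and 9 were at least 2-fold higher in zooids, and the median of 0.21 turned to -0.10 with equal sums. The summed level was 816 scaled TPM in stolons, against 426 in zooids. Complement component C3 (CO3), the central protein of the cascade, had 225 in stolons, against 37.9 in zooids (change 2.53). CD109, a related thioester protein at the cell surface, had 146 in stolons, against 9.85 in zooids (change 3.76), and was higher in budding nests, at 1094. MASP2, a protease that starts the lectin route of complement, had 84.8 in stolons against 17.3 in zooids in one transcript and 79.7 against 34.6 in another. The zooid-high side held von Willebrand factor (VWF), with 0.231 in stolons, against 49.1 in zooids (change -5.35), and the mannose receptor MRC1.

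Among developmental transcription factors, 9 of 43 transcripts were at least 2-fold higher in stolons and 18 were at least 2-fold higher in zooids. The median was -0.75, and it turned to 1.07 at a minimum level of 20. NKX23, a homeobox factor that in vertebrates acts in gut and spleen, had 126 scaled TPM in stolons, against 14.1 in zooids (change 3.08), with 119 to 130 in the other stages. SOX4, a factor of progenitor cells in vertebrates, had 105 in stolons, against 18.8 in zooids (change 2.42), and only 2.20 in dormant spherules. The blood cell regulator RUNX1 had 9.50 in stolons, against 2.84 in zooids. The retinoic acid receptor RARG had 105 in stolons, against 38.7 in zooids, and HNF4G, a nuclear receptor of gut and liver in vertebrates, had 65.6 in stolons, against 18.9 in zooids.

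Several regulators of pharynx, endoderm and neurons were listed at 0 in stolons. These were COE3, with 17.8 scaled TPM in zooids, PAX9, with 10.7, and FOXA2, with 10.5. The orphan nuclear receptor NR4A3, which responds quickly to stimulation, was stolon-high, with 37.3 in stolons, against 3.06 in zooids (change 3.24). It led the list of AP-1, HIF and other stress-responsive factors, of which 3 of 15 were at least 2-fold higher in stolons and 0 were in zooids. The AP-1 subunit JUN had 293 in stolons, against 110.03 in zooids.

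In the Wnt list, 1 of 18 transcripts was stolon-high (5.56%) and 5 were zooid-high (27.8%), near the 7.54% and 22.7% of all named transcripts. The zooid-high ones included the secreted Wnt binders SFRP3, with 0.763 scaled TPM in stolons against 13.2 in zooids, and SFRP2, with 0.026 against 5.08. The stolon-high member was KREM1, a Wnt co-receptor antagonist, with 53.9 in stolons and 18.3 in zooids. In the TGF-beta and BMP list, 1 of 13 was stolon-high (7.69%) and 4 were zooid-high (30.8%), also not far from those shares. Its median of -0.07 turned to 0.51 at a minimum of 20. BMP4, a ligand, had 1.47 in stolons, against 11.5 in zooids, and its antagonist noggin (NOGG) was listed at 0 in stolons, against 7.33 in zooids. TLL2, a protease of the tolloid family that frees BMP from its inhibitors, had 36.1 in stolons, against 10.6 in zooids. Receptors were among the stolon-high members of other pathways, with the insulin receptor (INSR) at 12.0 in stolons and 3.21 in zooids and the hedgehog transducer SMO at 19.2 in stolons and 7.27 in zooids.

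Transporters formed the longest list. Of 80 solute carriers and water channels, 9 (11.2%) were at least 2-fold higher in stolons and 27 (33.8%) in zooids. The shares of all named transcripts were 7.54% and 22.7%. The list median of -0.30 turned to 0.08 at a minimum of 20. The carnitine transporter S22A5 had 110.01 scaled TPM in stolons, against 3.92 in zooids (change 4.50). Carriers of amino acids were found on both sides. LAT4 had 125 in stolons, against 24.9 in zooids (change 2.29), LAT2 had 114 against 24.1 (change 2.19), and LAT1 had 113 against 41.4. All 3 carry large neutral amino acids. On the zooid side, S6A20, a carrier of proline in mammals, had 0.076 in stolons, against 25.0 in zooids, and the glutamate carrier EAA3 was listed at 0 in stolons, against 13.6 in zooids.

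Lysosomal and autophagy genes had a median of 0.40 over 30 transcripts. Of these, 4 (13.3%) were at least 2-fold higher in stolons and 5 (16.7%) in zooids, not far from the shares of all named transcripts. The cathepsins CATL1, with 0.010 scaled TPM in stolons against 90.8 in zooids, and CATD, listed at 0 in stolons against 35.03 in zooids, set the zooid side. Legumain (LGMN), a lysosomal protease, had 174 in stolons, against 72.6 in zooids. Genes that build the autophagosome were collected after their values were seen, so their count does not describe autophagy genes at large. Of 8, 4 were stolon-high and 0 zooid-high, against 7.54% and 22.7% of all named transcripts. In *C. lepadiformis* the changes of these 4 were -0.78 for TM41B, -0.39 for VMP1, 0.17 for RBCC1 and 1.35 for ATG13. VMP1, which acts in membrane supply to the autophagosome, had 97.5 in stolons, against 27.9 in zooids, and RBCC1, part of the complex that starts autophagy, had 27.2 in stolons, against 10.7 in zooids. MLP3A, the autophagosome coat protein LC3A, had 779 in stolons and 391 in zooids, just short of 2-fold at 0.99.

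Enzymes of phospholipids and stored fat, also grouped after the values were seen, included 7 stolon-high and 1 zooid-high of 16 transcripts. The shares of all named transcripts were 7.54% and 22.7%. PCY1A, the rate-limiting enzyme of phosphatidylcholine synthesis, had 88.5 scaled TPM in stolons, against 33.7 in zooids. PLPL2, the lipase that opens fat droplets, had 25.9 in stolons, against 11.9 in zooids, and its activator ABHD5 had 25.5 in stolons, against 8.90 in zooids. The changes of PLPL2 and ABHD5 were 1.06 and 1.42, against -0.13 and -0.38 in *C. lepadiformis*. Among the other stolon-high members, CHKB (1.77) and PA24A (1.67) were stolon-high there too. PCY1A (-0.40), LCLT1 (-0.40) and PA21B (-4.11) had changes below 0 there.

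Of 38 antioxidant and detoxification genes, 4 were stolon-high (10.5%) and 10 zooid-high (26.3%), with a median of -0.28. Among all named transcripts the shares were 7.54% and 22.7%, so this list lay near them. ABCG1, a cholesterol exporter, had 15.8 scaled TPM in stolons and 5.19 in zooids. The aldehyde dehydrogenase AL1B1 had 0.087 in stolons and 28.6 in zooids. Of 31 chaperones and folding enzymes, 0 were stolon-high and 6 zooid-high (19.4%), with a median of -0.21. For fatty acid oxidation, 0 of 21 genes were stolon-high and 1 zooid-high (4.76%), with a median of -0.33. Glycosaminoglycan synthesis had 2 stolon-high (13.3%) and 4 zooid-high (26.7%) of 15 (median -0.50). Notch and hedgehog signaling had 1 (9.09%) and 3 (27.3%) of 11 (median -0.36), near the shares of all named transcripts. Synapse genes had 0 and 3 of 8 (median -0.33). Receptor tyrosine kinases and growth factors had 2 stolon-high and 1 zooid-high of 16, with a median of 0.11 that turned to -0.10 with equal sums.

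The remaining named transcripts with the largest changes towards stolons had mixed roles. HEBP2, a heme-binding protein, had 2803 scaled TPM in stolons, against 148 in zooids (change 4.24), and only 4.29 in dormant spherules. The sulfotransferase ST1C3 had 104 in stolons, against 9.06 in zooids (change 3.38). HVCN1, a proton channel of phagocytes in mammals, had 33.4 in stolons, against 5.26 in zooids (change 2.46). Uromodulin-named UROM had 88.5 in stolons and 16.0 in zooids, and the small GTPase RERG had 32.2 in stolons and 5.48 in zooids. The ubiquitin ligase adaptor KLH24 (279 in stolons and 54.8 in zooids) completed the 15. Each name was counted by its transcript of largest absolute change, which left out a stolon-high SVEP1 transcript (change 2.33).

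The 15 names with the largest change towards zooids included several outside the muscle list. FABP4, a fatty acid carrier, had 0.233 scaled TPM in stolons, against 443 in zooids. Creatine kinase KCRB, which buffers ATP, had 0.025 in stolons, against 166 in zooids. Caveolin CAV1, which shapes membrane pits, had 0.115 in stolons, against 145 in zooids. ANX13, an epithelial annexin, was listed at 0 in stolons, against 137 in zooids, and CTRL, a digestive protease, had 0.112 in stolons, against 170.02 in zooids.

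Most stolon-high transcripts had their highest mean in stolons, a share that the selection itself raises. Over all transcripts compared, 24.2% were highest in stolons and 31.7% in zooids. Of the 3334, 2270 (68.1%) had their highest mean in stolons, 509 (15.3%) in dormant spherules, 391 (11.7%) in budding nests and 164 (4.92%) in germinating spherules, and with a lead of 1.5-fold over the next stage the number highest in stolons was 1511. Their median level was 17.1 scaled TPM in stolons, 10.7 in budding nests, 6.52 in dormant spherules, 6.94 in germinating spherules and 3.82 in zooids. Of the 3761 zooid-high transcripts, 3405 (90.5%) had their highest mean in zooids, with a median level of 1.04 in stolons, 1.04 in budding nests, 1.20 in dormant spherules, 2.04 in germinating spherules and 11.6 in zooids. Budding nests thus sat next to stolons in both sets. The grouping by stolon and zooid level itself fixes that these 2 columns differ, so only the other stages add to the description. Among the 15 leading zooid-high names, TNNC2 had 0.378 in budding nests, 286 in dormant spherules and 174 in germinating spherules, and CLD1 had 0.554, 11.5 and 50.7 in the same stages.

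**Figure D3:**
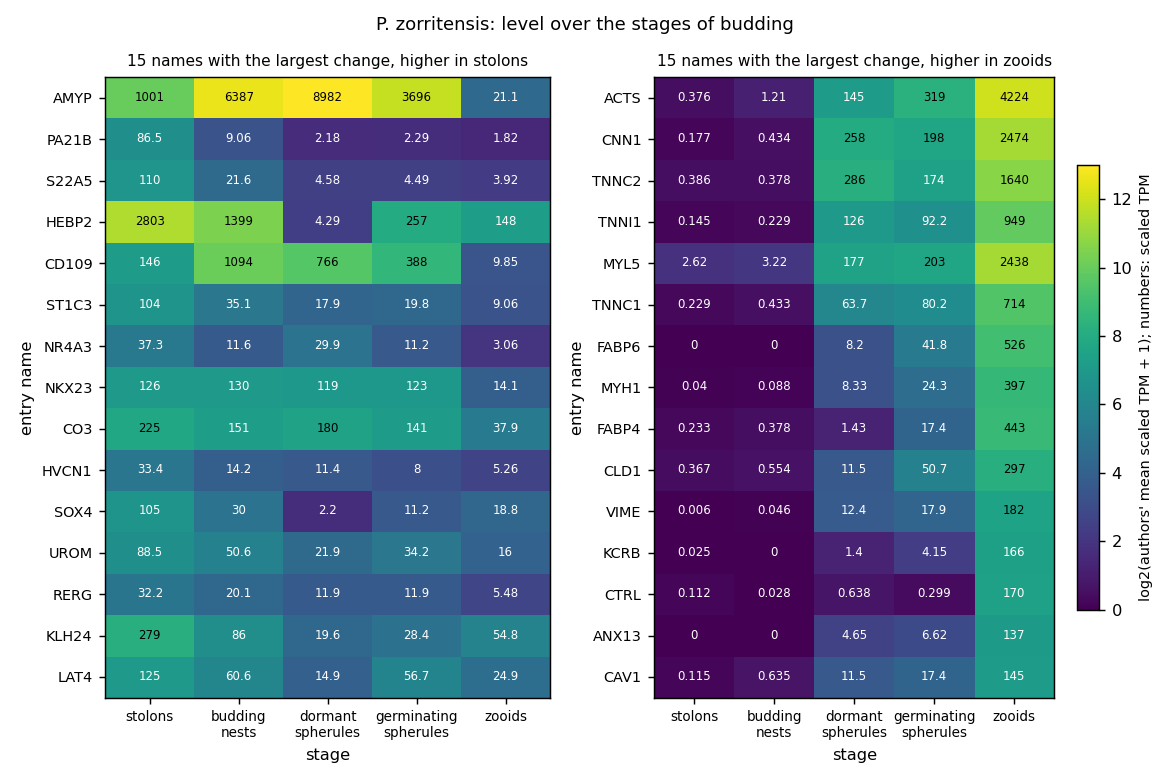
Authors' mean scaled TPM in the 5 stages (columns, from stolons to zooids) of the 15 names with the largest change in each direction (rows, each name by its transcript of largest absolute change), with colour as log2(scaled TPM + 1) and the level printed in each cell. AMYP and CD109 are highest in budding nests or dormant spherules, PA21B and HEBP2 in stolons, and all 15 zooid-high names have their highest level in zooids.

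Transcripts with the same human name did not always move together. Of 134 names carried by at least 2 transcripts compared, 19 (14.2%) had 1 transcript at least 2-fold higher in stolons and another at least 2-fold higher in zooids, and in all 19 the transcripts came from different assembled genes. Vimentin (VIME), an intermediate filament of mesenchymal cells, had 395 scaled TPM in stolons and 194 in zooids in one transcript, 289 and 169 in another, and 0.006 and 182 in the other. S22A5 had 110.01 in stolons and 3.92 in zooids in one, and 0.178 and 15.7 in another. The mucus protein FCGBP had 29.7 in stolons and 5.74 in zooids in one, and 0.012 and 13.7 in another. FCGBP belongs to the endostyle and mucus list, where 2 of 7 were stolon-high and 4 were zooid-high and the median of -1.07 turned to 1.81 at a minimum of 20.

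The same held for a scaffold and a matrix protein. NHRF3, a scaffold of membrane transporters, had 18.9 scaled TPM in stolons and 4.89 in zooids in one transcript, and 0.904 and 44.1 in another. Fibronectin (FINC) had 10.6 in stolons and 1.74 in zooids in one, and 2.44 and 12.5 in another. Within an assembled gene such splits were rarer. Of 2534 genes with at least 2 isoforms compared, 37 (1.46%) had isoforms past 2-fold in both directions. Reads shared by near-identical copies can be divided between them by the quantification, so values of such copies are less certain.

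**Figure D4:**
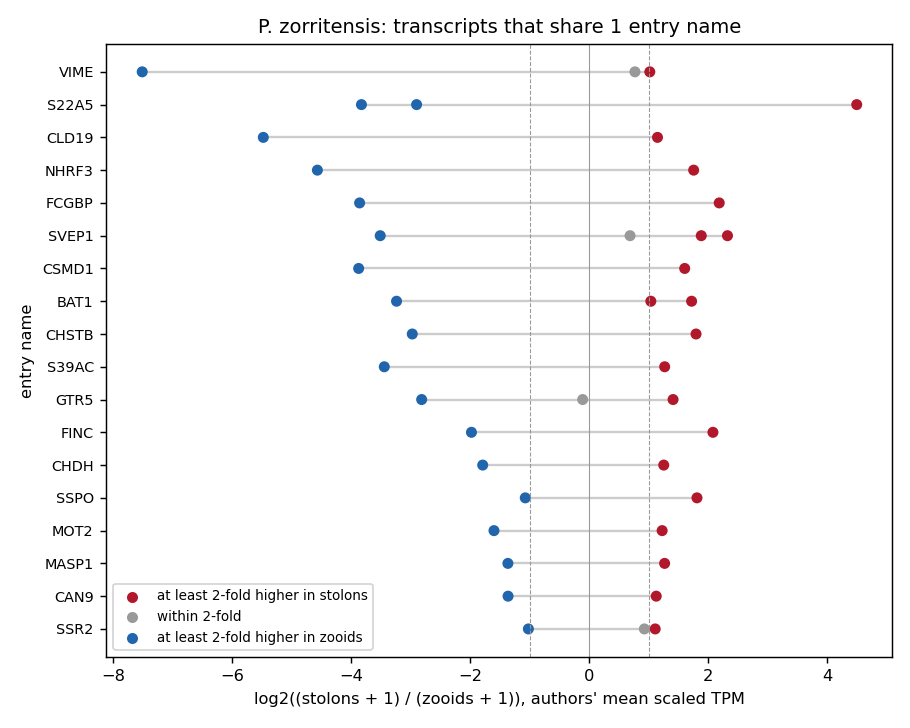
Log2 change (horizontal axis, stolons over zooids, authors' mean scaled TPM + 1) of each transcript of 18 of the 19 names with members past 2-fold in both directions, 1 row per name and 1 point per transcript. VIME spans from -7.51 to 1.02 and S22A5 from -3.82 to 4.50.

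The same contrast was read in *C. lepadiformis* through paired transcripts. Its table was normalized separately, so only changes within each species are set side by side. In that table, 17.7% of the 13976 transcripts compared were at least 2-fold higher in stolons and 21.3% were at least 2-fold higher in zooids. Of the 3411 pairs at or above the minimum in both species, 12.3% were stolon-high and 23.8% zooid-high in *C. lepadiformis*. Of the 336 pairs that were stolon-high in *P. zorritensis*, 171 (50.9%) were stolon-high in *C. lepadiformis* and 36 (10.7%) were zooid-high. Of the 860 that were zooid-high, 585 (68.0%) were zooid-high there and 56 (6.51%) were stolon-high. Across pairs the changes had a Spearman correlation of 0.576, given as a description, since all points of a species share the same stolon and zooid samples and the study chose the pairs.

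By gene group, most transcripts for muscle (15 of 22), cilia (68 of 69) and digestion (24 of 33) were lower in stolons in *C. lepadiformis* too. In 10 of the 28 lists the median had the opposite sign there, but several of these medians lay near 0. They were 0.13 for Wnt signaling, -0.13 for lysosome and 0.01 for developmental transcription factors. The developmental factors had 11 stolon-high and 16 zooid-high members there, so their counts leaned towards zooids in both species. Their median and that of solute carriers (0.27 there) also changed sign within *P. zorritensis* at a minimum of 20. Matrix, glycolysis and proteasome were also among the 10. All 41 ribosomal proteins compared there were higher in stolons, with a median of 0.43 against 0.83 in *P. zorritensis*. The proteasome median was -0.52 in *C. lepadiformis*, against 0.45. Of the 43 matrix pairs, 16 were stolon-high and 6 zooid-high in *C. lepadiformis*, with a median of 0.14. The fibrillar collagen CO5A2 had a change of -0.36 there, against -6.87 in *P. zorritensis*. Glycolysis had a median of 0.87 there, against -0.49, and the 24 cell cycle genes, 13 of them zooid-high in *P. zorritensis*, had a median of -0.54 with 0 zooid-high of 21.

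The 4 named transcripts with the largest change towards stolons were all zooid-high in *C. lepadiformis*. AMYP had 51.8 scaled TPM in stolons and 174 in zooids there (change -1.73), PA21B had 1.60 and 43.8 (change -4.11), and HEBP2 had 137 and 1210 (change -3.13). S22A5 had a change of -1.42. In all, 18 named transcripts were stolon-high in *P. zorritensis* and zooid-high in *C. lepadiformis*, and 78 were stolon-high in both. The shared ones included CD109 (3.57 in *C. lepadiformis*), NKX23 (3.44), CLD18 (2.71), UROM (2.56), SOX4 (1.74), ST1C3 (1.52) and CO3 (1.15). In the opposite direction, 28 named transcripts were zooid-high in *P. zorritensis* and stolon-high in *C. lepadiformis*, among them RHAG, an ammonia channel, with 4.28 in stolons and 26.2 in zooids of *P. zorritensis* and 411 in stolons and 56.1 in zooids of *C. lepadiformis*.

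**Figure D5:**
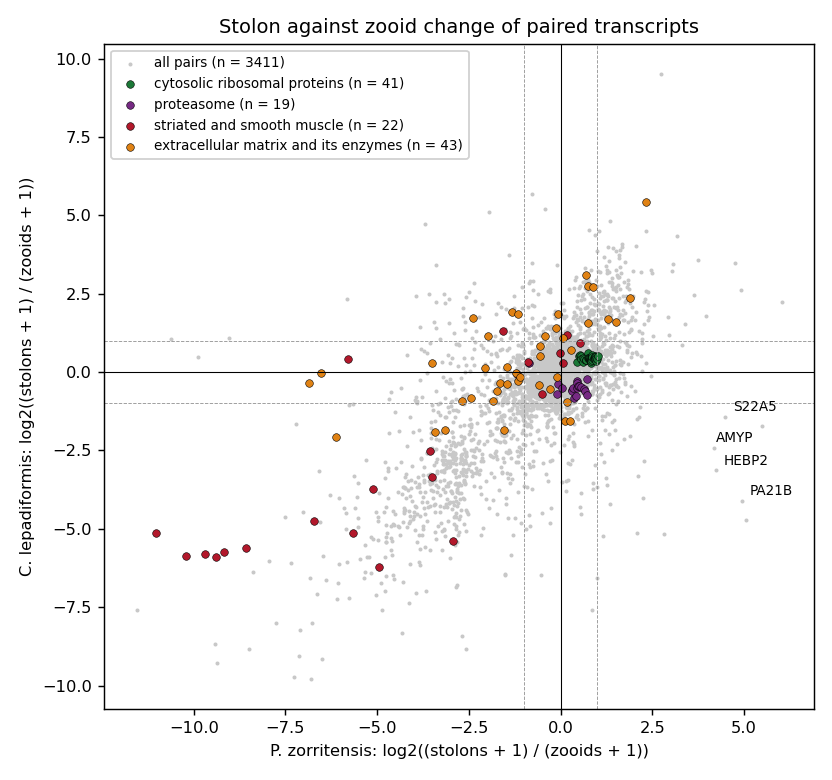
Log2 change (stolons over zooids, authors' mean scaled TPM + 1) in *C. lepadiformis* (vertical axis) against that in *P. zorritensis* (horizontal axis) for 3411 paired transcripts, with 4 gene lists coloured and dashed lines at 2-fold. Muscle lies mostly at the lower left, the 41 ribosomal proteins above 0 in both, the 19 proteasome subunits mostly to the lower right of the centre, and the 4 named transcripts with the largest change towards stolons (AMYP, PA21B, S22A5 and HEBP2) at the lower right.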

How the data were processed

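Total RNA of stolons and zooids was sequenced as 150-base read pairs on 2 lanes, with samples of each stage in both. Per the paper's methods, the authors used Rcorrector and Trim Galore on the reads, filtered out rRNA through Bowtie2, assembled 1 transcriptome per species with Trinity, filtered it by taxon and redundancy, dropped transcripts under 5 TPM and quantified with Kallisto. The deposited signal values are the authors' means per stage of TMM-scaled TPM. The named sheet also holds the authors' up and down calls at an FDR of 0.001, which were not used. Its entry names were joined by transcript ID.

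From the means, log2((stolons + 1)/(zooids + 1)) was computed for transcripts with at least 5 in the higher mean, using Python 3.11.15, numpy 2.4.6, pandas 2.3.3 and scipy 1.17.1. With 1 mean per stage no error or p-value can be given, so a 2-fold difference served as the threshold. The step was run on simulated means with planted changes well past the threshold and no noise. That checks the calculation only and says nothing about replicate spread. The columns sum to 806444 scaled TPM in stolons and 687868 in zooids, and the 100 most abundant transcripts take 40.2% and 32.6%. Lane assignments were not given in the sources used here.

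The comparison, the gene lists and the markers were chosen with earlier results of these data known. Named are, with each name represented by its transcript of largest absolute change in either direction, the 15 largest changes in each direction, the 10 highest stolon means, for each list at most 4 members that changed most, and the 1 unnamed transcript with the largest change in each direction. Other names were chosen after their values were seen. Of 29 lists, 28 had at least 3 members. From these, 15 names matched by spelling alone were taken out after the values were seen. Alternatives were other pseudocounts, minimum levels, folds and scalings, centring on the median, isoforms summed per gene, and the spelling matches kept. No reference sequence was used. The values of 1 name are not reported here.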

Additional observations from a re-analysis of the deposited data

How the results depend on the processing

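No paired analysis was possible because only 1 mean per stage was deposited, and leaving out a replicate was not possible for the same reason. Named genes past 2-fold kept their sign, but the settings run for single genes could not have reversed a change of that size. Isoforms were not summed for single genes. At a fold of 4, 1401 transcripts were higher in stolons and 2271 in zooids, 28 and 400 of them named, 21 pairs were stolon-high in both species in place of 171, and 8 assembled genes in place of 37 had isoforms past it in both directions. At a minimum of 20 the counts were 1495 and 1124, of which 131 and 179 were named, and the endostyle and mucus list reversed to a median of 1.81. At a minimum of 1, and with none, 5670 transcripts were zooid-high. A pseudocount of 5 left 128 named stolon-high transcripts in place of 208, and 3 lists in place of 5 with a median of -1 or below. With equal sums, 4 lists in place of 7 had a median above 0. Requiring a lead of 1.5-fold left 1511 stolon-high transcripts with their highest mean in stolons. Centring on the median gave 3576 stolon-high and 3555 zooid-high transcripts, and summing isoforms per gene gave 2671 and 3238 genes. The cause of these shifts was not tested. The main limits are that depth and replicate spread are unknown, and that names cover only transcripts called in both species.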
